A study of Homo sapiens with 21 samples.

Results

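Ferroptosis is a form of cell death driven by iron-dependent peroxidation of membrane lipids. The 10 genes described here supply, repair, bypass or feed that process, and they were taken from a list of glutathione, lipid peroxidation and iron genes among the 58870 genes of the files. The genes were chosen by function, with earlier results of these data known. All 10 passed the filter on low values. They were SLC7A11, SLC3A2, GCLC and GCLM (cystine import and glutathione synthesis), GPX4 (repair of lipid peroxides), AIFM2 (a glutathione-independent defense), ACSL4 (loading of oxidizable lipids), and TFRC, FTH1 and HMOX1 (iron import, iron storage and heme breakdown).

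Cells import cystine through an antiporter made of SLC7A11 and SLC3A2, reduce it to cysteine and build glutathione, which GPX4 uses to reduce lipid hydroperoxides in membranes. AIFM2 regenerates ubiquinol, a radical trap that works without glutathione, while ACSL4 activates the polyunsaturated fatty acids that are most easily oxidized. Free iron promotes the reaction, so transferrin receptor, ferritin and heme oxygenase bear on it as well. Dedifferentiated and drug-tolerant melanoma cells are known for sensitivity to ferroptosis, and these libraries measured RNA only, not lipid peroxidation or cell death.

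The 21 libraries form 7 groups of 3, all labelled as A375 or derived from it, a BRAF-mutant line established from human melanoma. The titles of the gSOX10 #4 libraries carry a number that in the study belongs to a clone of MeWo, another melanoma line, so every gSOX10 #4 value rests on the labelled cell line. gSOX10 #2 and gSOX10 #4 are CRISPR/Cas9 knockouts of SOX10, which encodes a transcription factor that neural crest cells and melanocytes depend on, each made with its own guide and each 1 clone, without inhibitors. CRT34 and CRT35 were derived from A375 tumors that became tolerant to BRAF and MEK inhibition in mice, are SOX10 deficient, and were sequenced with PLX4720 (1 µM, BRAF inhibitor) plus PD0325901 (35 nM, MEK inhibitor), called Combo, or with the solvent, called DMSO. The parental line carried no knockout and received no inhibitor. The labels do not give the treatment time, the time off drug of the DMSO groups, or whether replicates were grown as separate cultures, so p-values measure the spread between these libraries, which may be technical. With 1 clone per guide and no control clone among these libraries, the effects of SOX10 loss, cloning and selection cannot be told apart.

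Values are normalized gene counts, scaled between libraries but not by gene length, so levels are compared within a gene only. Estimated depth, given in units of 1e6 reads, ran from 27.4 to 75.9, lowest in CRT35 DMSO replicate 1. SOX10 ranged from 392 to 517 in the knockout clones and from 0 to 6.32 in the CRT libraries, against 10348 to 12822 in parental cells. CRT34 Combo replicate 3 resembled CRT34 DMSO (mean r = 0.969 across genes) more than its own group (0.964), and the results of the 10 genes that change without it are given beside them. Every list gene named below in CRT34 Combo was also called without it. Leaving out CRT35 DMSO replicate 1 changed no call of the 10 genes, although some smaller differences passed or failed the test without it, as given below. Of 9 melanocytic markers, MLANA and TYR stayed under 10 in every group, parental cells included. The list's sum was 2005 to 3377 in the clones, 4673 to 10814 in CRT34 Combo, 2171 to 2956 in CRT34 DMSO, 3123 to 4477 in CRT35 Combo and 1628 to 1709 in CRT35 DMSO, against 13127 to 15427 in parental cells, and DCT reached 10 only in CRT34 Combo. The summed level of 6 fibroblast markers lay between 103943 and 435935 in CRT libraries and between 1133 and 2568 in the clones, against 478 to 614 in parental cells, and its part in the results for the CRT lines was not tested. The sum of 5 leukocyte markers lay between 3690 and 8189 in the clones and between 3183 and 16881 in CRT libraries, against 1158 to 1298 in parental cells. CD3E stayed under 10 in every group, while PTPRC reached 10 in both Combo groups. The part of either list in the results was not tested. In bulk RNA, fewer expressing cells and less RNA per cell cannot be told apart.

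**Figure D1:**
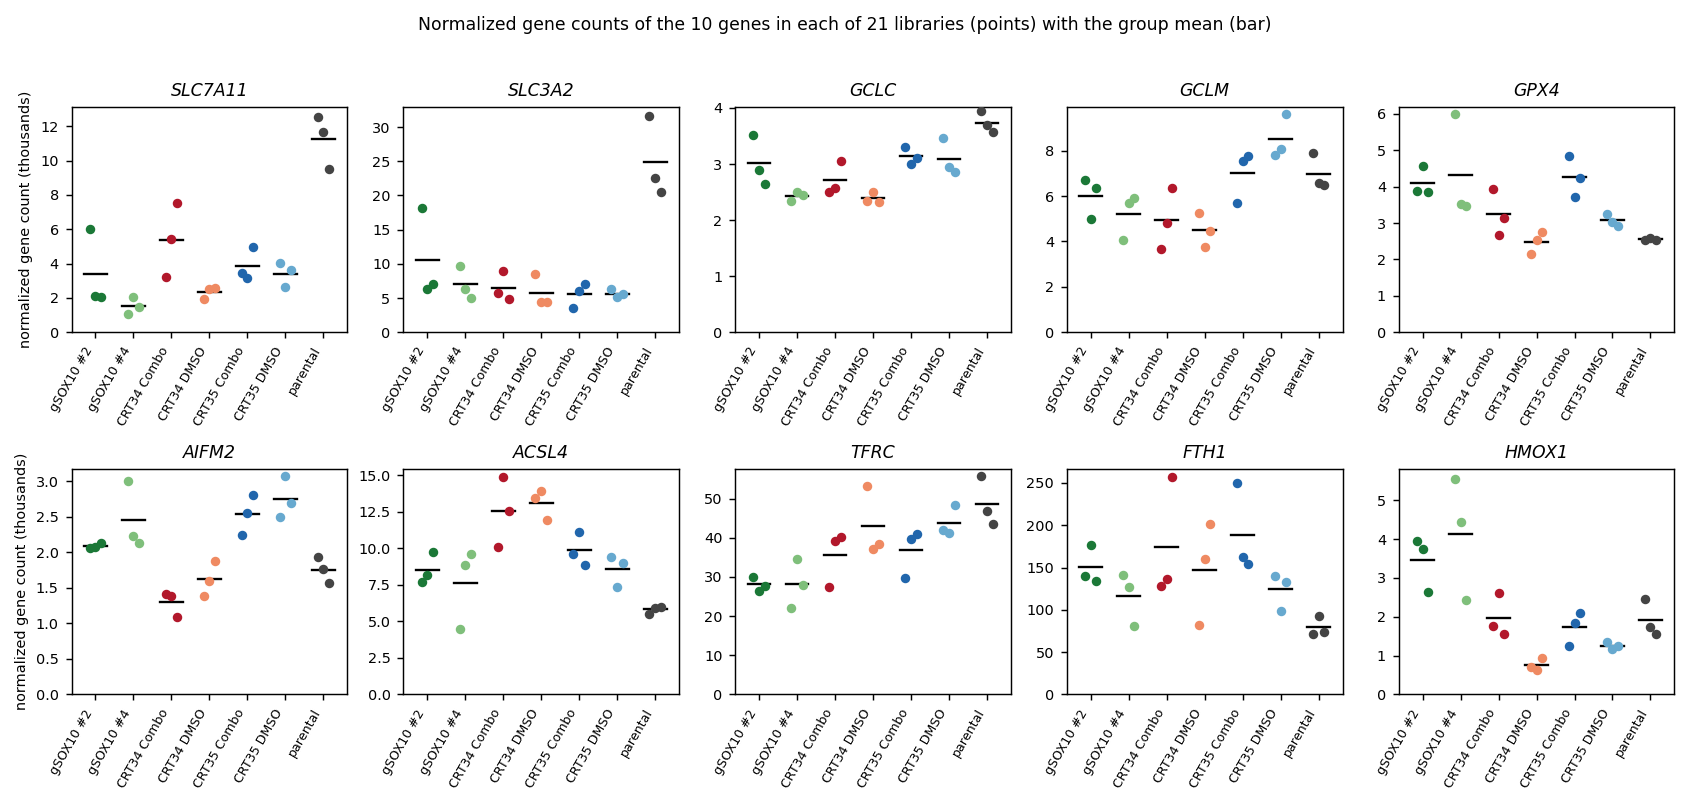
Normalized gene count (in units of 1000, linear axis from 0) of each gene in the 21 libraries, 1 point per library and a bar at each group's mean, with the derived groups on the left and parental cells on the right of each panel. SLC7A11, SLC3A2 and GCLC lay below every parental library in all 18 derived libraries, and FTH1 lay above every parental library in 16.

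Some of these genes carry short sequence elements that are known to tie them to oxidative stress, amino acid supply or iron, and those found are shown to mark which members share one. RefSeq promoter windows (GRCh38.p14, 250 bases before to 50 after a start) were matched for 7 of the 10 genes. The antioxidant response element, bound by NRF2 with small MAF proteins, was searched as TGACNNNGC on both strands. It occurred in 3 of the 11 windows of these genes, in 3 of the 7 genes, and in 13.3% of all 35116 windows. SLC7A11, HMOX1 and FTH1 had no entry. The matches lay at chr11:62881652-62881681 for SLC3A2 (plus strand gene, 37 bases before the start), at chr10:70132828-70132857 for AIFM2 (minus strand gene, 22 bases before the start) and at chr1:93909445-93909474 for GCLM (minus strand gene, 34 bases before the start). Each sequence is written along its gene's own strand with the match in capitals, and in AIFM2 and GCLM the match reads on the opposite strand.
SLC3A2: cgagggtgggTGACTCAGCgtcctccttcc
AIFM2: cagcacgagtGCTGAGTCAcgccccgcccg
GCLM: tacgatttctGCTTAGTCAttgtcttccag

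The C/EBP-ATF response element, the site through which ATF4 acts on amino acid genes, was searched as TGATGNAA. Of the 7 genes SLC3A2 alone had a match, against 3.62% of all windows. It lay in the same window as the match above, at chr11:62881725-62881748, from 37 bases after the start, on the opposite strand.
SLC3A2: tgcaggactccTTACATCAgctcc

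Iron-responsive elements are hairpins in untranslated regions (UTRs) that the iron regulatory proteins bind when iron is scarce, which blocks translation of ferritin RNA and stabilizes transferrin receptor RNA. They were searched in GENCODE version 44 as an unpaired C, a stem of 5 pairs and a loop that starts with CAGTG. A match occurred in the UTRs of 108 of 19701 canonical coding transcripts (0.548%), and 2 of the 10 genes had one. The FTH1 element lay in the 5′ UTR on the minus strand at chr11:61967575-61967601 (GRCh38). The 4 TFRC elements lay in the 3′ UTR on the minus strand at chr3:196050980-196051006, chr3:196050576-196050602, chr3:196050511-196050537 and chr3:196050464-196050490, in the order listed. The loop is in capitals.
FTH1 5′ UTR: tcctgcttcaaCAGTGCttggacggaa
TFRC 3′ UTR, element 1: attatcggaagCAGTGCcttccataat
TFRC 3′ UTR, element 2: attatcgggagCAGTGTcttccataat
TFRC 3′ UTR, element 3: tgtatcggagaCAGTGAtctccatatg
TFRC 3′ UTR, element 4: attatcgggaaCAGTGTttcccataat
A match is a description of the letters and not evidence that a factor acted on the gene in these cells.

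Both chains of the cystine antiporter were lower in every derived group than in parental cells. SLC7A11, the transporting chain (GRCh38 chr4:138164097-138242349, minus strand), had 6017, 2133 and 2044 in gSOX10 #2 and 1045, 2073 and 1481 in gSOX10 #4. It had 3194, 5415 and 7516 in CRT34 Combo, 1920, 2524 and 2603 in CRT34 DMSO, 3455, 3130 and 4937 in CRT35 Combo, and 4020, 2634 and 3609 in CRT35 DMSO, against 12556, 11678 and 9518 in parental cells. The highest of the 18 derived libraries, 7516, stayed below the lowest parental one.

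Differences are given on the log2(value + 1) scale, and a gene was called at an adjusted limma p of 0.05 or lower and a fold of at least 2. SLC7A11 was called lower in all 6 comparisons with parental cells, which share the same 3 parental libraries. In the clones the difference was -1.91 in gSOX10 #2 (SE 0.36, limma adjusted p = 0.000324) and -2.92 in gSOX10 #4 (SE 0.36, adjusted p = 4.67e-06), 3.76-fold and 7.57-fold lower. In the tolerant lines it was -1.14 in CRT34 Combo (limma adjusted p = 0.014), -2.26 in CRT34 DMSO (6.07e-05), -1.57 in CRT35 Combo (0.0013) and -1.73 in CRT35 DMSO (0.000732). The call in CRT34 Combo was lost without CRT34 Combo replicate 1 (-0.81, limma adjusted p = 0.0907) and kept without replicate 3 (-1.43, adjusted p = 0.00543), while the other 5 calls held under each alternative that was run.

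Among the derived groups SLC7A11 ranked highest in CRT34 Combo (mean 5375) and lowest in gSOX10 #4 (1533), and each neighbor in that order overlapped the next. gSOX10 #2 replicate 1 lay well above the other libraries of its group in both antiporter chains. Without it the differences of gSOX10 #2 from parental cells were -2.42 for SLC7A11 and -1.87 for SLC3A2 (limma adjusted p = 1.5e-05 and 0.000333).

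SLC3A2, the chain that SLC7A11 shares with other amino acid transporters (chr11:62856004-62888880, plus strand), had 18209, 6298 and 7085 in gSOX10 #2 and 9675, 6329 and 4966 in gSOX10 #4. Its levels were 5758, 8937 and 4925 in CRT34 Combo, 8530, 4407 and 4405 in CRT34 DMSO, 3608, 6046 and 7029 in CRT35 Combo, and 6272, 5090 and 5528 in CRT35 DMSO, against 31559, 22486 and 20523 in parental cells. No derived library reached the parental range.

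SLC3A2 was called lower in all 6 comparisons as well, by 1.39 (SE 0.37) on the log2 scale in gSOX10 #2 and 1.86 in gSOX10 #4, and the fitted folds were 2.62 and 3.63. Its log2 differences in the CRT groups were close to each other, at -1.95 in CRT34 Combo, -2.15 in CRT34 DMSO, -2.19 in CRT35 Combo and -2.12 in CRT35 DMSO. The limma adjusted p-values of the 6 comparisons ran from 7.1e-05 in CRT35 Combo to 0.00509 in gSOX10 #2, and all 6 calls held under each alternative.

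The genes whose pattern over the 21 libraries was most like that of SLC3A2 were SLC7A5, its partner in the large neutral amino acid transporter (Pearson r = 0.93), the splicing factor SRSF6 (0.91) and AATF (0.91). For SLC7A11 they were RBBP6 (0.88), TSN (0.85) and OTUD3 (0.85). These r values are on log2(value + 1) among 12223 protein-coding genes with a mean of at least 100, the libraries share 7 groups, and r is given as a description.

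GCLC and GCLM form glutamate-cysteine ligase, which catalyzes the first step of glutathione synthesis. GCLC, the catalytic subunit (chr6:53497341-53616970, minus strand), ranged from 2639 to 3525 in gSOX10 #2, 2343 to 2505 in gSOX10 #4, 2493 to 3059 in CRT34 Combo, 2329 to 2503 in CRT34 DMSO, 2999 to 3295 in CRT35 Combo and 2864 to 3464 in CRT35 DMSO, against 3574 to 3940 in parental cells. All 18 derived libraries lay below the lowest parental one, yet every difference was under 2-fold. It passed the limma test in 4 comparisons, at -0.32 in gSOX10 #2 (adjusted p = 0.0377), -0.62 in gSOX10 #4 (0.00047), -0.47 in CRT34 Combo (0.00334) and -0.65 in CRT34 DMSO (0.00027). In CRT35 Combo and CRT35 DMSO the differences were -0.25 and -0.28 (limma adjusted p = 0.082 and 0.0678).

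In the CRT35 line the group means of GCLM, the modifier subunit, were not below the parental mean, unlike those of GCLC. None of these CRT35 differences from parental cells passed the test, and the 2 genes were not compared with each other. The GCLM gene lies at chr1:93885199-93909456 on the minus strand. It had 6688, 5002 and 6352 in gSOX10 #2, 4066, 5677 and 5898 in gSOX10 #4, 3647, 4832 and 6375 in CRT34 Combo, 5265, 3775 and 4478 in CRT34 DMSO, 5703, 7555 and 7753 in CRT35 Combo, and 7809, 8065 and 9634 in CRT35 DMSO, against 7898, 6586 and 6470 in parental cells. CRT35 DMSO had the highest values and overlapped the parental range in 1 library. Its difference of 0.28 did not pass the limma test (adjusted p = 0.266). In CRT34 it was lower under 2-fold, at -0.53 with Combo and -0.64 with DMSO (limma adjusted p = 0.0344 and 0.0143). In gSOX10 #2 and gSOX10 #4 its differences were -0.22 and -0.44 and did not pass (limma adjusted p = 0.386 and 0.0901), and CRT35 Combo averaged 7004, against 6984 in parental cells (adjusted p = 0.991).

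GPX4, the selenium-containing peroxidase that reduces lipid hydroperoxides (chr19:1103982-1106791, plus strand), was higher by less than 2-fold in both knockout clones and in CRT35 Combo. It had 3890, 4579 and 3864 in gSOX10 #2 and 6002, 3530 and 3459 in gSOX10 #4. In the tolerant lines it had 3944, 2675 and 3132 in CRT34 Combo, 2142, 2543 and 2758 in CRT34 DMSO, 4842, 3729 and 4245 in CRT35 Combo, and 3253, 3042 and 2931 in CRT35 DMSO, against 2526, 2602 and 2525 in parental cells. Of the 18 derived libraries 16 were above all 3 parental ones, and the other two were both CRT34 DMSO.

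The log2 differences of GPX4 were 0.68 in gSOX10 #2, 0.71 in gSOX10 #4 and 0.74 in CRT35 Combo (limma SE 0.18, adjusted p = 0.00523, 0.00466 and 0.00241). Those of CRT34 Combo, CRT34 DMSO and CRT35 DMSO were 0.33, -0.05 and 0.27 (adjusted p = 0.143, 0.861 and 0.253). In the order of group means, gSOX10 #4, CRT35 Combo and gSOX10 #2 came first, followed by CRT34 Combo, CRT35 DMSO, parental cells and CRT34 DMSO. Each overlapped the next except CRT35 DMSO and parental cells.

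AIFM2, also called FSP1 (chr10:70098223-70132934, minus strand), ranged from 2063 to 2135 in gSOX10 #2, 2135 to 3000 in gSOX10 #4, 1096 to 1408 in CRT34 Combo, 1387 to 1879 in CRT34 DMSO, 2244 to 2811 in CRT35 Combo and 2497 to 3073 in CRT35 DMSO, against 1566 to 1928 in parental cells. It was higher under 2-fold in gSOX10 #4 (0.47, limma adjusted p = 0.0218), CRT35 Combo (0.53, 0.00763) and CRT35 DMSO (0.65, 0.00232). It was lower in CRT34 Combo (-0.44, limma adjusted p = 0.0257), where no library overlapped the parental range. That difference did not pass without CRT34 Combo replicate 3 (-0.32, adjusted p = 0.116). In gSOX10 #2 and CRT34 DMSO it did not pass the test, at 0.26 and -0.12 (adjusted p = 0.191 and 0.569).

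ACSL4, the enzyme that couples arachidonate and related fatty acids to coenzyme A (chrX:109624244-109733403, minus strand), was more than 2-fold higher in CRT34. It had 10094, 14915 and 12578 in CRT34 Combo, 13453, 13907 and 11909 in CRT34 DMSO, 9640, 11103 and 8858 in CRT35 Combo, and 9421, 7385 and 9019 in CRT35 DMSO. In the clones it had 7722, 8151 and 9727 in gSOX10 #2 and 4458, 8868 and 9628 in gSOX10 #4, against 5520, 5947 and 5996 in parental cells. Of the 18 derived libraries 17 lay above the parental range and 1, gSOX10 #4 replicate 1, lay below it.

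ACSL4 was called higher in CRT34 Combo (1.09, SE 0.21, limma adjusted p = 0.000404) and CRT34 DMSO (1.17, adjusted p = 0.000245). It passed the test under 2-fold in gSOX10 #2, CRT35 Combo and CRT35 DMSO at 0.55, 0.76 and 0.56 (limma adjusted p = 0.0449, 0.00611 and 0.042), and did not pass in gSOX10 #4 (0.32, adjusted p = 0.255). The fold in CRT34 Combo dropped just under 2 without CRT34 Combo replicate 2 (0.95), where the limma adjusted p was 0.00363.

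Of the iron genes, the transferrin receptor TFRC was lower in the clones while the ferritin heavy chain FTH1, which stores iron, was higher in several groups. TFRC (chr3:196012511-196082153, minus strand) had 30094, 26470 and 27779 in gSOX10 #2 and 21999, 34473 and 27908 in gSOX10 #4. It ranged from 27500 to 40322 in CRT34 Combo, 37163 to 53109 in CRT34 DMSO, 29629 to 40953 in CRT35 Combo and 41284 to 48361 in CRT35 DMSO, against 43486 to 55888 in parental cells. No library of either clone or of the Combo groups reached the parental range, whereas both DMSO groups overlapped it.

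The TFRC differences from parental cells were -0.79 in gSOX10 #2 and -0.81 in gSOX10 #4 (limma SE 0.18, adjusted p = 0.00206 and 0.00205), and -0.46 in CRT34 Combo (adjusted p = 0.046). In CRT35 Combo, CRT34 DMSO and CRT35 DMSO they were -0.41, -0.19 and -0.15 (adjusted p = 0.0694, 0.424 and 0.557).

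FTH1 (chr11:61959718-61967634, minus strand) had 139565, 176498 and 134570 in gSOX10 #2 and 141048, 126425 and 81319 in gSOX10 #4. In the tolerant lines it had 128012, 136441 and 257262 in CRT34 Combo, 81511, 160060 and 201229 in CRT34 DMSO, 249750, 162142 and 153756 in CRT35 Combo, and 140462, 98570 and 133196 in CRT35 DMSO, against 71403, 92317 and 74098 in parental cells. The CRT34 and CRT35 groups varied widely among their own libraries, and only gSOX10 #4 and CRT34 DMSO overlapped the parental range.

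FTH1 was called higher in CRT35 Combo (1.22, SE 0.31, limma adjusted p = 0.00276) and in CRT34 Combo (1.07, adjusted p = 0.00826). The call in CRT34 Combo was lost without CRT34 Combo replicate 3, the highest library (0.75, adjusted p = 0.0555), and also without parental replicate 1 (0.996, adjusted p = 0.0325) and with library quality weights (0.79, adjusted p = 0.00319), where the difference stayed under 2-fold. FTH1 passed the test under 2-fold in gSOX10 #2 (0.92, adjusted p = 0.0212) and CRT34 DMSO (0.81, adjusted p = 0.0423), and did not pass in gSOX10 #4 and CRT35 DMSO (0.52 and 0.64, adjusted p = 0.193 and 0.105). It passed 2-fold in gSOX10 #2 without parental replicate 2 (1.04, adjusted p = 0.0267), with quantile normalization (1.16, adjusted p = 0.00482) and with equal totals (1.04, adjusted p = 0.0119), and in CRT34 DMSO without CRT34 DMSO replicate 1 (1.19, adjusted p = 0.00331). Ferritin has processed gene copies of nearly the same sequence, and how reads were shared among them is not known here, so its values are uncertain.

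HMOX1, heme oxygenase 1, which releases iron from heme and is a target of NRF2, was the only member called in both directions against parental cells. The gene lies at chr22:35380361-35394214 on the plus strand. It had 3953, 3755 and 2640 in gSOX10 #2 and 5559, 4436 and 2434 in gSOX10 #4. It had 1766, 2600 and 1562 in CRT34 Combo, 705, 633 and 932 in CRT34 DMSO, 1250, 1841 and 2089 in CRT35 Combo, and 1355, 1159 and 1253 in CRT35 DMSO, against 2450, 1746 and 1557 in parental cells. By group mean the clones were highest (4143 in gSOX10 #4 and 3449 in gSOX10 #2) and CRT34 DMSO lowest (757). Neighbors in the order of means overlapped except gSOX10 #2 and CRT34 Combo, and CRT35 DMSO and CRT34 DMSO.

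HMOX1 was called higher in gSOX10 #4 (1.06, SE 0.28, limma adjusted p = 0.00581), where gSOX10 #4 replicate 3 (2434) lay below parental replicate 1 (2450), and called lower in CRT34 DMSO (-1.33, adjusted p = 0.000862). The call in gSOX10 #4 dropped below 2-fold when gSOX10 #4 replicate 1 (0.80), gSOX10 #4 replicate 2 (0.97) or parental replicate 3 (0.92) was left out. In gSOX10 #2 it was higher under 2-fold (0.85, limma adjusted p = 0.0187), and it did not pass in CRT35 DMSO (-0.59, adjusted p = 0.0998), CRT34 Combo (0.04, 0.931) and CRT35 Combo (-0.16, 0.666). The gSOX10 #2 difference passed 2-fold without parental replicate 1 (1.04, adjusted p = 0.0131), and also without gSOX10 #2 replicate 3 (adjusted p = 0.0135). Over the 21 libraries the genes most like it were STPG1 (r = 0.90), DUSP23 (0.87) and TLE1 (0.87), again as a description.

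**Figure D2:**
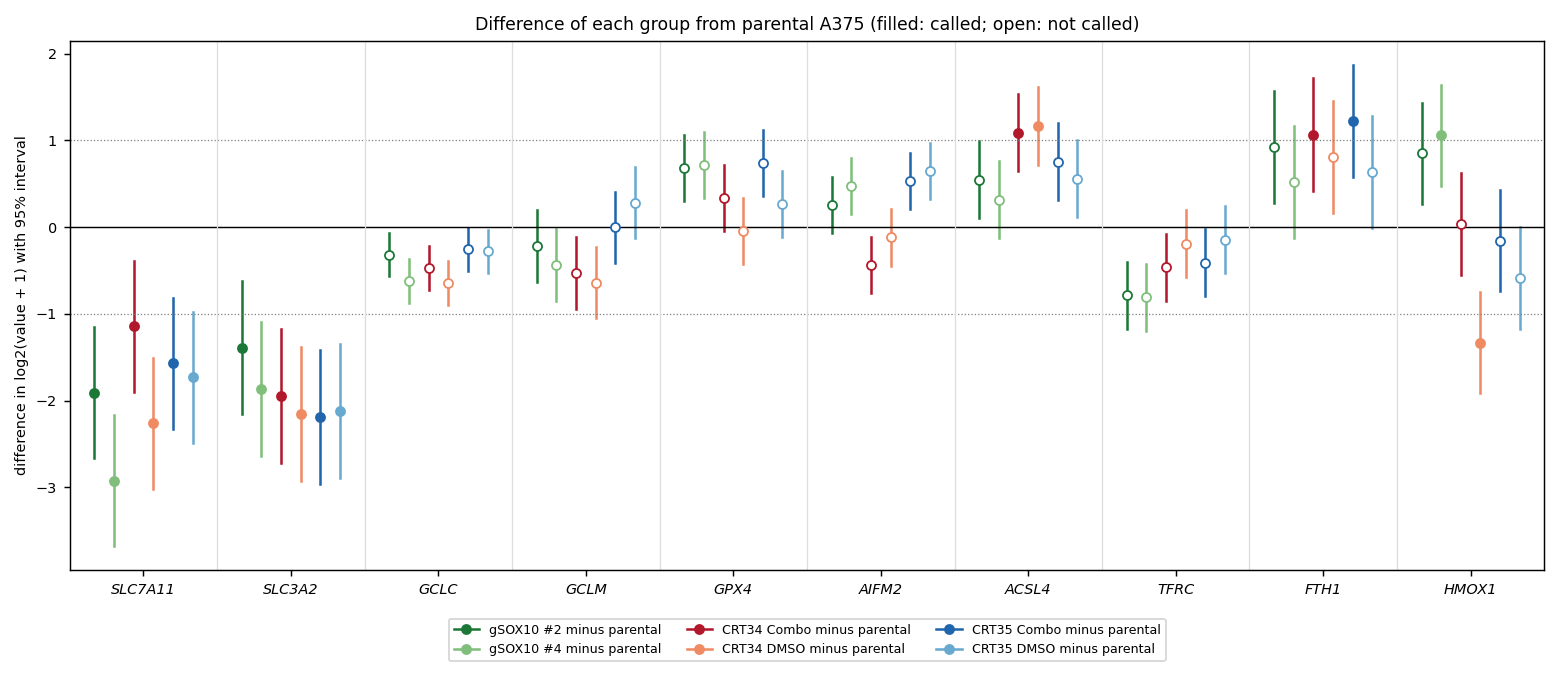
Difference of each derived group from parental cells in log2(value + 1) for the 10 genes, with limma's 95% interval, filled where called and open where not, and dotted lines at a 2-fold change. SLC7A11 and SLC3A2 are filled and below 0 in all 6 comparisons, whereas HMOX1 lies on both sides of 0.

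Counted over the 10 genes, 2 were called in gSOX10 #2 (0 higher, 2 lower), beside 23.7% of the 19290 genes tested. In gSOX10 #4 it was 3 (1 higher, 2 lower) beside 20.7%. In CRT34 Combo it was 4 (2 higher, 2 lower) beside 27.2%, in CRT34 DMSO 4 (1 higher, 3 lower) beside 23.1%, in CRT35 Combo 3 (1 higher, 2 lower) beside 30.3%, and in CRT35 DMSO 2 (0 higher, 2 lower) beside 23.7%. With 10 genes these counts are near the background, so the number of calls is no result about the group. The values of the single genes are what the comparisons show.

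Against parental cells, between 38% of all genes in gSOX10 #4 and 51.6% in CRT35 Combo passed the limma test at any fold. Over all 12 comparisons a member passed the test 48 times, and 15 of these did not pass when some single library was left out. These 15 were mostly differences under 2-fold, and the matching share among all genes was not counted. Against parental cells they were ACSL4, GCLC, FTH1 and HMOX1 in gSOX10 #2, AIFM2 in gSOX10 #4, SLC7A11, GCLM, AIFM2, TFRC and FTH1 in CRT34 Combo, GCLM and FTH1 in CRT34 DMSO, and ACSL4 in CRT35 DMSO. For ACSL4 in gSOX10 #2, adjusted p lay above 0.05 whichever of the 6 compared libraries was left out, the least without gSOX10 #2 replicate 1 (0.0508). ACSL4 in CRT35 DMSO failed without CRT35 DMSO replicate 1 (0.49, limma adjusted p = 0.131) and GCLC there passed without it (-0.36, adjusted p = 0.0374). In gSOX10 #4, ACSL4 passed without gSOX10 #4 replicate 1 (0.67, adjusted p = 0.00253).

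The effect of the inhibitors was taken within each tolerant line. Per the study these lines were kept in culture with both inhibitors. Combo minus DMSO therefore sets the usual culture against culture without the inhibitors, and not a first exposure against none. In CRT34, HMOX1 alone was called, higher with Combo than with DMSO (1.37, SE 0.28, 2.58-fold, limma adjusted p = 0.00519), beside 5.1% of all genes tested. The 3 Combo libraries (1766, 2600 and 1562) lay above the 3 DMSO libraries (705, 633 and 932). With only the compared libraries in the fit the limma adjusted p was 0.0718 and with CRT34 Combo replicate 3 left out the difference was 1.52 (adjusted p = 0.00282).

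SLC7A11 had a difference of 1.12 between CRT34 Combo and CRT34 DMSO, with all 3 Combo libraries above the DMSO ones, but its limma adjusted p was 0.0636. It crossed the threshold under some alternatives, as with quantile normalization (1.17, limma adjusted p = 0.0499), and without CRT34 Combo replicate 3 it did not (0.84, adjusted p = 0.18). SLC7A11 was also called without CRT34 Combo replicate 1 (1.45, adjusted p = 0.0318). The other 8 genes lay between -0.32 for AIFM2 and 0.38 for GPX4 in CRT34 and did not pass. With library quality weights SLC3A2 (0.83, limma adjusted p = 0.00656) and AIFM2 (-0.43, adjusted p = 0.00184) passed under 2-fold.

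In CRT35, 0 of the 10 genes were called by limma, beside 1.14% of all genes, and 1 (GPX4) had an unadjusted p under 0.05, beside 15.5% of all genes. The largest differences were FTH1 at 0.59 (95% interval -0.06 to 1.23, limma adjusted p = 0.373), GPX4 at 0.47 (0.09 to 0.85, adjusted p = 0.224) and HMOX1 at 0.43 (-0.15 to 1.01, adjusted p = 0.488). For FTH1 and GPX4 the 3 Combo libraries lay above the 3 DMSO libraries, and for GCLM and TFRC they lay below them. How many of all genes separated in this way was not counted, so it is given as a description. With library quality weights FTH1 (0.53, limma adjusted p = 0.0442), GPX4 (0.34, 0.0195), ACSL4 (0.39, 0.022) and HMOX1 (0.58, 0.0347) passed under 2-fold. Whether the inhibitor effect differed between the lines was tested as an interaction, and 0 of the 10 genes were called by limma, beside 0.0104% of all genes, with 1 (HMOX1) at an unadjusted p under 0.05, beside 6.96%. For HMOX1 the difference of the effects was -0.94 (SE 0.39, limma adjusted p = 0.621) and for SLC7A11 -0.96 (SE 0.51, adjusted p = 0.757). With library quality weights the difference of the effects passed the test under 2-fold for HMOX1 (-0.82, limma adjusted p = 0.0454) and FTH1 (0.96, adjusted p = 0.0189). Without these weights the HMOX1 call in one line and not in the other is not shown to be a difference between lines.

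**Figure D3:**
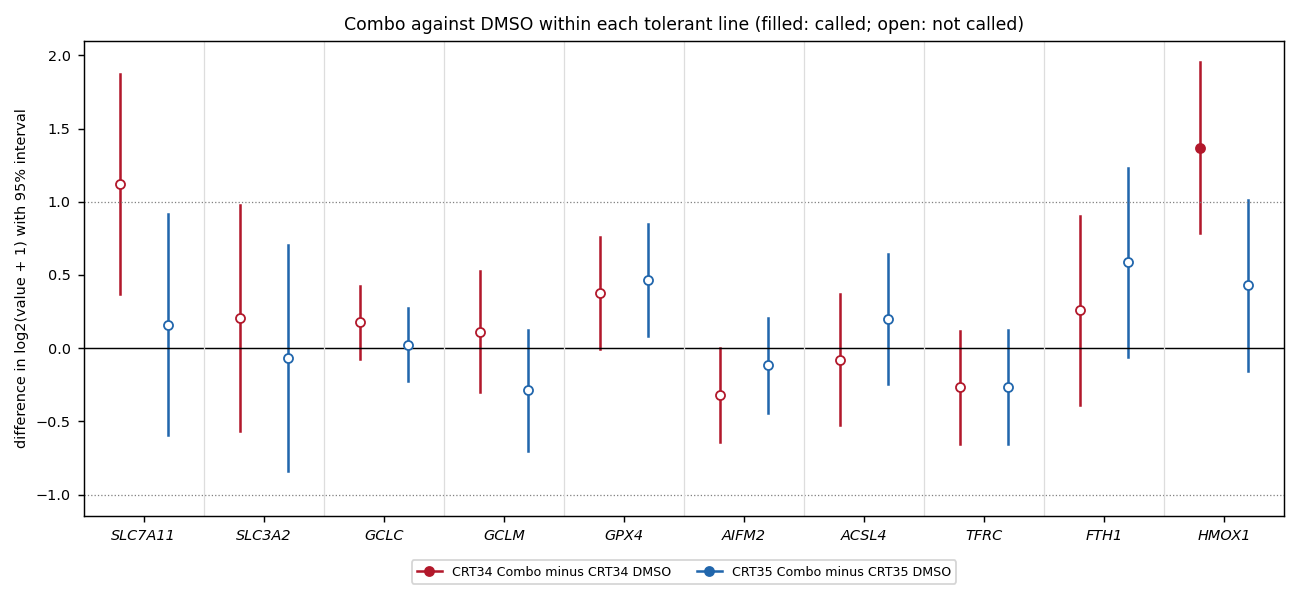
Combo minus DMSO within CRT34 and within CRT35 in log2(value + 1), with limma's 95% interval, filled where called and open where not. HMOX1 in CRT34, at 1.37, is the only filled point.

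The 2 clones were compared with each other, as were the 2 lines without drug. Between gSOX10 #4 and gSOX10 #2, 0 of the 10 genes were called by limma, beside 9.7% of all genes, and 2 (SLC7A11 and GCLC) had an unadjusted p under 0.05, beside 33.7%, with SLC7A11 at -1.01 just short of the threshold (SE 0.36, limma adjusted p = 0.0523). That value was -0.50 without gSOX10 #2 replicate 1 (limma adjusted p = 0.304). It was -1.25, -1.28 and -1.26, and called, without gSOX10 #2 replicate 2, gSOX10 #2 replicate 3 and gSOX10 #4 replicate 2, in that order. Between CRT35 DMSO and CRT34 DMSO, 0 were called by limma, beside 8.11% of all genes, and 5 had an unadjusted p under 0.05, beside 27.6%. Of these, 3 passed the test under 2-fold, beside 15.4% of all genes that passed it at any fold, all higher in CRT35. They were GCLM at 0.92 (SE 0.20, limma adjusted p = 0.00325), AIFM2 at 0.77 (SE 0.15, adjusted p = 0.00207) and GCLC at 0.37 (SE 0.12, adjusted p = 0.0432). GCLC did not pass when any one of the 6 libraries was left out. Without CRT34 DMSO replicate 1 GCLM passed 2-fold (1.04, adjusted p = 0.00332). For GCLM, AIFM2 and GCLC the 3 CRT35 DMSO libraries lay above the 3 CRT34 DMSO libraries. That split was not counted over all genes. With library quality weights ACSL4 (-0.56, limma adjusted p = 0.000462) and FTH1 (-0.74, adjusted p = 0.00208) passed under 2-fold, both lower in CRT35. With only the compared libraries HMOX1 passed, higher in CRT35 (0.75, adjusted p = 0.0275).

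Acquired loss of SOX10 in the undrugged tolerant lines was set against its engineered loss in the clones, a comparison chosen after the values had been seen. Its p-values rest on the spread between libraries within groups, not between lines or between clones. Growth in mice and drug selection went with the CRT lines, and cloning went with the knockouts. Their effects cannot be told apart from the way SOX10 was lost. HMOX1 was 3.77-fold lower in the CRT DMSO lines (633 to 1355) than in the clones (2434 to 5559), at -1.91 (SE 0.20, limma adjusted p = 2.54e-07), with alternatives between -2.08 and -1.71. It was the 1 member called of 10, beside 18.8% of all genes. GPX4 was lower by 0.59 on the log2 scale (adjusted p = 0.00114), whereas TFRC was higher by 0.63 (adjusted p = 0.000726), and neither overlapped between the 6 CRT DMSO and the 6 clone libraries. ACSL4 was higher by 0.43 (limma adjusted p = 0.0274) with overlapping libraries, and did not pass without gSOX10 #2 replicate 1 (0.40, adjusted p = 0.0601) or without any one of 5 others of the 12 libraries. SLC7A11, SLC3A2 and FTH1 had differences of 0.42, -0.51 and 0.00 and did not pass (limma adjusted p = 0.197, 0.122 and 0.997). Without gSOX10 #2 replicate 1 SLC7A11 passed under 2-fold (0.67, adjusted p = 0.0162) and SLC3A2 was at -0.27, while without CRT34 DMSO replicate 1 SLC3A2 passed (-0.67, adjusted p = 0.0485). The fibroblast markers summed to 142296 to 267156 in the CRT DMSO libraries, against 1133 to 2568 in the clones, and their part in these differences was not tested.

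To place the members among their pathways, 7 related lists without the members were described. FTL, BLVRB and CHAC1 each stand in 2 of them. The lists were drawn up with earlier results of these data known, and are described by their counts beside those of all genes. At most 2 called genes in each direction are named per comparison, so a list gene can also have changed in groups not named. Genes of the ATF4 and amino acid response, the transcription program that cells use when amino acids are short, had a median below that of all genes in each of the 6 comparisons with parental cells, which share the parental libraries. In gSOX10 #2 their median was -0.62, beside 0.03 over all genes, with 5 of 21 lower and 3 higher (38.1% called, beside 23.7% of all genes). In gSOX10 #4 it was -0.30, beside 0.00, with 6 lower and 1 higher (33.3% called, beside 20.7%). In the CRT groups it was -0.48 in CRT34 Combo, -0.70 in CRT34 DMSO, -0.32 in CRT35 Combo and -0.49 in CRT35 DMSO, with between 5 and 7 lower and between 2 and 3 higher. The shares called were 33.3%, 47.6%, 33.3% and 38.1% in that order, beside 27.2%, 23.1%, 30.3% and 23.7%, so those of the Combo groups were near the background.

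SLC7A5, the partner of SLC3A2 in the large neutral amino acid transporter, averaged 12125 ± 3780 in gSOX10 #2, 14475 ± 4832 in gSOX10 #4 and 5544 ± 2794 in CRT34 DMSO, against 53779 ± 9212 in parental cells (SD, n = 3 each). It was called lower in all 6 comparisons. CEBPG, a C/EBP partner of ATF4, was lower in gSOX10 #2 at -1.56 and gSOX10 #4 at -1.10, and TRIB3, a pseudokinase induced by ATF4, was lower in CRT35 Combo at -1.46 and CRT35 DMSO at -1.28. NUPR1, a stress-induced cofactor, moved the other way, at 2.90 in gSOX10 #2, 3.30 in CRT34 Combo, 4.31 in CRT35 Combo and 2.97 in CRT35 DMSO. STC2, a secreted glycoprotein, was higher at 1.60 in gSOX10 #4, 2.11 in CRT34 Combo, 2.20 in CRT34 DMSO, 2.96 in CRT35 Combo and 2.05 in CRT35 DMSO.

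Other glutathione genes changed in both directions. In gSOX10 #2, 4 of 24 tested were higher and 5 lower (37.5%, beside 23.7% of all genes), among them MGST1, a membrane glutathione transferase, at 1.33 and MTHFD2, a mitochondrial folate enzyme, at -1.94. In gSOX10 #4, 4 were higher and 4 lower (33.3%, beside 20.7%), with MGST1 at 1.27 and SLC1A4, a neutral amino acid transporter, at -2.46. In CRT34 Combo, CRT34 DMSO, CRT35 Combo and CRT35 DMSO the shares were 29.2%, 25%, 37.5% and 20.8%, beside 27.2%, 23.1%, 30.3% and 23.7%. In the CRT groups CTH, which makes cysteine from methionine by transsulfuration, was lower at -1.39 in CRT34 Combo, -1.29 in CRT34 DMSO, -1.21 in CRT35 Combo and -1.49 in CRT35 DMSO. GGT5, a gamma-glutamyl transferase, was higher in CRT35 DMSO, averaging 701 ± 265, against 2.65 ± 1.59 in parental cells.

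Of the NRF2 pathway and its targets, 11 of 30 were higher and 0 lower in gSOX10 #2 (36.7%, beside 23.7% of all genes called), with AKR1B10 at 816 ± 379 and AKR1C2 at 11706 ± 1297, against 11.5 ± 6.01 and 835 ± 213 in parental cells, both being aldo-keto reductases. In gSOX10 #4, 7 were higher and 1 lower (26.7%, beside 20.7%), the lower one being the quinone reductase NQO1 at 13636 ± 3005, against 66964 ± 6315 in parental cells. In CRT34 Combo 4 were higher and 3 lower (23.3%, beside 27.2%), in CRT34 DMSO 3 and 6 (30%, beside 23.1%), in CRT35 Combo 7 and 2 (30%, beside 30.3%) and in CRT35 DMSO 3 and 3 (20%, beside 23.7%). NQO1 was lower in CRT34 DMSO at -1.48. BLVRB, a biliverdin reductase, was higher in gSOX10 #2 at 2.13, CRT35 Combo at 3.06 and CRT35 DMSO at 2.43. In the comparison of CRT DMSO lines with the clones, 9 of 30 were lower and 1 higher (33.3%, beside 18.8%), with AKR1B10 at -6.56 and ABCC2, an exporter of glutathione conjugates, at -2.83.

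The share of the 29 iron genes called ran from 13.8% in gSOX10 #4 to 27.6% in CRT35 Combo and CRT35 DMSO, near or below that of all genes. Of these genes ACO1, the cytosolic aconitase that becomes iron regulatory protein 1, was called higher in all 6 comparisons. It averaged 8204 ± 809 in gSOX10 #2, 9034 ± 1769 in gSOX10 #4, 8567 ± 3742 in CRT34 Combo, 8623 ± 826 in CRT34 DMSO, 17714 ± 3282 in CRT35 Combo and 15288 ± 2042 in CRT35 DMSO, against 2434 ± 237 in parental cells. STEAP3, which reduces iron in the endosome, was higher in CRT34 DMSO at 1.81 and CRT35 Combo at 2.31. LCN2, an iron-siderophore carrier, was lower in 5 of the 6 comparisons, though parental values varied widely (142 ± 118). FTL, the ferritin light chain, was higher with Combo than with DMSO in CRT34, at 119587 ± 20309, against 58510 ± 17248 (1.07, limma adjusted p = 0.00519).

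The share of the 22 lipid genes called ran from 22.7% in CRT34 DMSO to 31.8% in CRT35 Combo, beside 23.1% and 30.3% of all genes. Among them ACSL5, an acyl-CoA synthetase related to ACSL4, was higher at 3.93 in gSOX10 #4, 1.58 in gSOX10 #2, 1.82 in CRT34 Combo, 3.18 in CRT35 Combo and 2.82 in CRT35 DMSO. In CRT34 DMSO it averaged 750 ± 132, against 274 ± 5.88 in parental cells. ALOXE3, a lipoxygenase, was higher at 3.36 in gSOX10 #2, 2.17 in gSOX10 #4, 2.58 in CRT34 Combo and 3.35 in CRT35 Combo. PTGS2, a cyclooxygenase whose RNA is used as a marker of ferroptosis, averaged 49468 ± 28820 in CRT34 DMSO, against 160 ± 46.7 in parental cells. It was lower with Combo than with DMSO in CRT34 (5835 ± 9503, against 49468 ± 28820, limma adjusted p = 0.00513), and its libraries varied widely within both groups. Over both CRT DMSO groups together PTGS2 averaged 29957 ± 28368, against 804 ± 581 over both clones. SAT1, which breaks down polyamines, was higher in CRT34 DMSO and CRT35 DMSO at 2.62 and 2.68.

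Of 24 genes of glutathione-independent defense, between 8.33% in CRT35 DMSO and 25% in both Combo groups were called, near or below all genes. GCH1, the first enzyme of tetrahydrobiopterin synthesis, was higher in CRT34 Combo at 1.72, CRT34 DMSO at 1.74 and CRT35 DMSO at 1.23. MGST3 was higher in gSOX10 #2 at 1.64, and the ubiquinone genes COQ7 and COQ8A were lower in CRT34 Combo at -1.48 and -1.28. The selenoprotein list holds genes that make selenoproteins or supply selenium, and also selenoproteins other than GPX4. Of this list, 2 of 22 were called in each clone (9.09%, beside 23.7% in gSOX10 #2 and 20.7% in gSOX10 #4). In CRT34 it was 5 with Combo (22.7%, beside 27.2%) and 3 with DMSO (13.6%, beside 23.1%). In CRT35 it was 7 with Combo (31.8%, beside 30.3%) and 5 with DMSO (22.7%, beside 23.7%). The CRT shares were near or below those of all genes. Most of these CRT calls were higher, as were between 66.3% and 70.2% of the calls over all genes. SELENOM, a selenoprotein of the endoplasmic reticulum, was higher at 3.02 in gSOX10 #2, 2.48 in gSOX10 #4, 3.12 in CRT34 DMSO and 4.01 in CRT35 Combo. SELENOP, the plasma selenium carrier, was higher at 4.69 in CRT34 Combo and 5.19 in CRT35 Combo and also called higher in CRT35 DMSO, and DIO2, a deiodinase, at 8.26 in CRT34 Combo and 6.66 in CRT34 DMSO. LRP8, a receptor for selenoprotein P, was lower in CRT34 Combo at -1.42 and in CRT35 Combo at -1.02, while SCLY, selenocysteine lyase, was lower in gSOX10 #2 at -1.33.

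**Figure D4:**
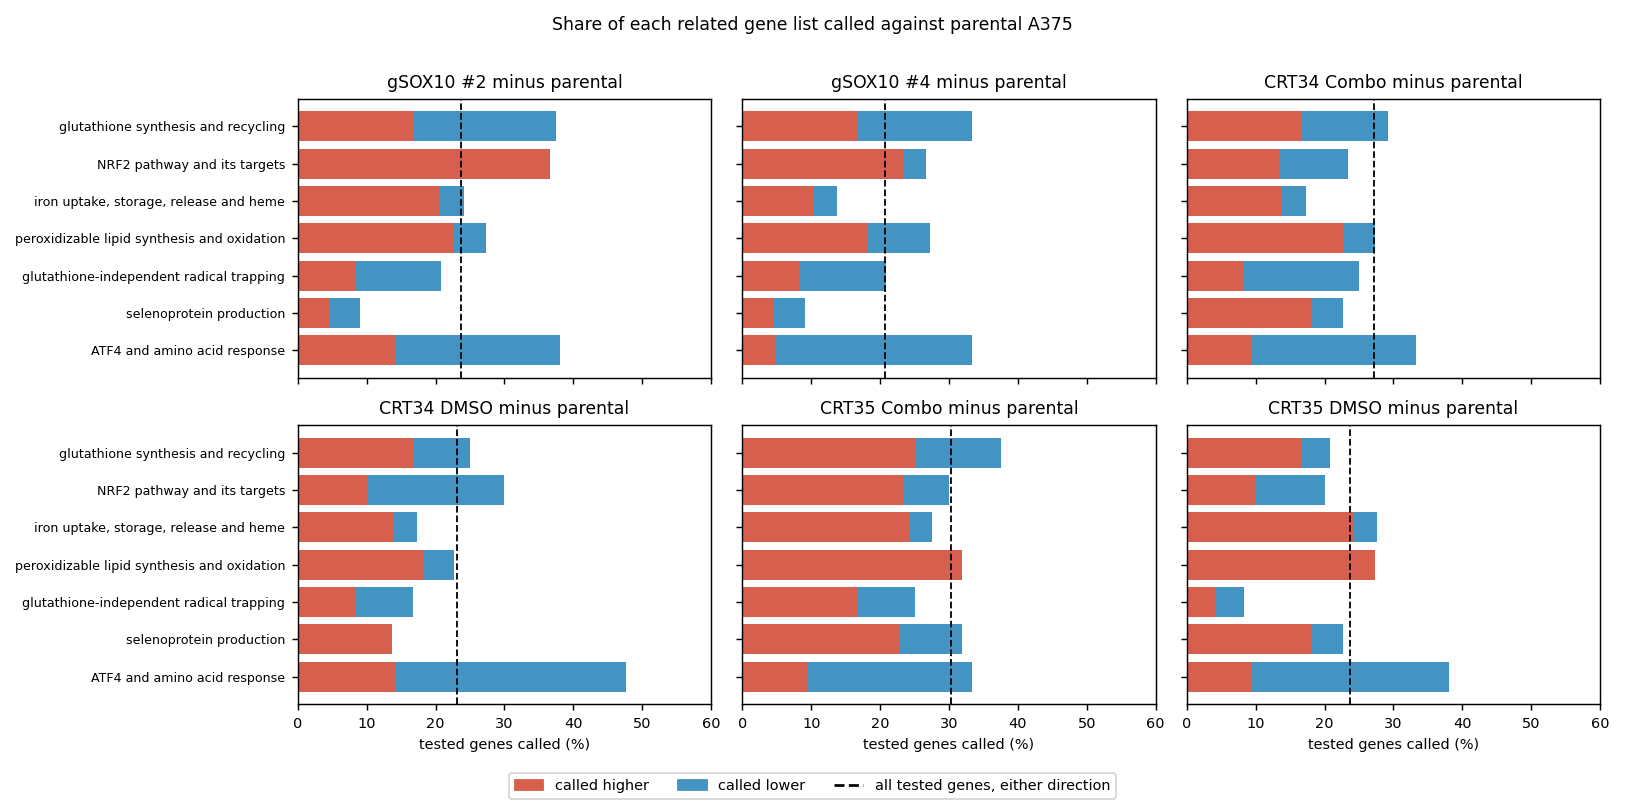
Share of the tested genes of each of 7 related lists that were called higher (red) or lower (blue) against parental cells, with a dashed line at the share of all genes called. The ATF4 list had more lower than higher genes in each of the 6 panels, which share the parental libraries. It passed the line by little in CRT34 Combo and CRT35 Combo (33.3% in each, beside 27.2% and 30.3%). The NRF2 list in gSOX10 #2 had 0 lower genes.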

How the data were processed

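RNA sequencing was done on 21 libraries in 7 groups of 3. Per the labels, paired-end reads were processed with STAR 2.6.1a, RSEM, Picard and DESeq2 on GRCh38, while the study names another STAR version. The labels and the study name different TruSeq kits, so whether reads were stranded is not settled here. The deposited values are a signal that the authors made, gene counts divided by library size factors. Whole reads could not be recovered from them (27.1 to 64.5% of low values were whole multiples of a step, tolerance 0.05), so no count test was run. In units of 1e6, totals were 59.2 to 68.3, and depth estimated from the steps was 27.4 to 75.9 reads. Precision is taken from the spread between libraries.

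Symbols were matched for 58472 of 58870 gene IDs (GENCODE 44). The 19290 genes that reached 10 in 3 or more libraries were fitted on log2(value + 1) with limma 3.58.1 (trend, R 4.3.3), with 1 mean per group over all 21 libraries and no covariate (14 residual and 4.70 prior degrees of freedom). P-values were two-sided and Benjamini-Hochberg adjusted over all genes tested. Calls needed both a 2-fold change and an adjusted p no higher than 0.05. The fit was tested on simulated data. Tables and figures were made with Python 3.11.15, pandas 2.3.3, numpy 2.4.6 and matplotlib 3.10.9.

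The members and lists were chosen with earlier results of these data known. All 10 members were named. From each list, up to 2 called genes of lowest p in each direction could be named per comparison, and for the 3 members with the widest range of group means the 3 genes of highest r were named. The comparison of the CRT DMSO lines with the knockout clones was added after the values were seen. Alternatives were no filter, a pseudocount of 10, only the compared libraries, a replicate block, quantile normalization, equal totals, library quality weights, both libraries that stood apart left out, and each library left out in turn. Leaving CRT34 Combo replicate 3 out of the values of list genes was added after the data were seen. Among the 6 groups with numbered titles, same-numbered libraries deviated together (every correlation over 0.1) in 1 of 15 pairs of groups, CRT34 Combo and CRT35 Combo (0.218, 0.253 and 0.207). Only the interaction of the inhibitor effects sets these groups against each other, and its fit without the replicate block did not use the pairing. In the other pairs the libraries shared only a number.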

Additional observations from a re-analysis of the deposited data

How the results depend on the processing

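Over 132 values and 29 alternatives, no member reversed direction where it was called, 1742 values for single genes stayed on their side of the calling threshold, 10 lost a call and 18 gained one. Of the counts of called genes, 165 stayed within 1.5 times and 12 did not. Between CRT34 Combo and CRT34 DMSO the count of 1 called gene became 0 with only the compared libraries (HMOX1, adjusted p = 0.0718), and 2 with quantile normalization, equal totals or library quality weights, where SLC7A11 was gained. Between gSOX10 #4 and gSOX10 #2 the count of 0 became 1, SLC7A11, with equal totals (-1.02) and with both libraries that stood apart left out (-1.01). Library quality weights also let further differences under 2-fold pass the test. Among them were TFRC in CRT34 DMSO (-0.29, limma adjusted p = 0.0108) and ACSL4 in gSOX10 #4 (0.57, adjusted p = 0.00172), each against parental cells. The causes were not tested.

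With single libraries left out, the count of called genes ranged from 2 to 3 in gSOX10 #2 and in gSOX10 #4, 3 to 4 in CRT34 Combo and 4 to 5 in CRT34 DMSO, each against parental cells. It ranged from 1 to 2 for CRT34 Combo against CRT34 DMSO, 0 to 1 for gSOX10 #4 against gSOX10 #2 and 0 to 1 for CRT35 DMSO against CRT34 DMSO, and it did not move in the other comparisons.

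With a replicate block, 2 genes were called between CRT34 Combo and CRT34 DMSO (SLC7A11 at 1.12, adjusted p = 0.0271), and no other count of members moved. Over all genes the block gave 895 calls there and 3860 for gSOX10 #4 against parental cells, beside 983 and 3996 without it. No paired analysis was possible for gSOX10 #2 because its labels are numbered unlike the other groups.

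Equal totals moved the median difference of all genes from parental cells to 0.15 in gSOX10 #2 and 0.14 in CRT34 Combo, and quantile normalization moved it to between -0.13 and -0.09 in the groups other than gSOX10 #4. With quantile normalization 53.9% of the calls of gSOX10 #2 were higher, beside 67.1%, and 51.8% of those of CRT34 Combo, beside 70.2%. In CRT34 DMSO the shares were 53.4% beside 68.2%, in CRT35 Combo 50.8% beside 66.4% and in CRT35 DMSO 54.1% beside 66.3%. Between gSOX10 #4 and gSOX10 #2 they were 40.8% beside 27.2%.

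The groups hold 3 libraries each, 1 clone stands for each guide, and parental libraries are shared by 6 comparisons, so an error in 1 parental library enters all of them. The time on and off drug is not in the labels. RNA levels were measured, not protein, glutathione or lipid peroxides.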
